A study of Mus musculus with 19 samples.

Results

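The genes described here are 8 transcription factors and transcriptional regulators of the naive state of mouse embryonic stem cells: Esrrb, Nr5a2, Nr0b1, Prdm14, Tfcp2l1, Tbx3, Gbx2 and Zfp42. They were taken by name from a table of 21685 genes, and all 8 were found there and were expressed highly enough to be tested, beside 14988 genes tested in all. The table holds normalised mRNA expression on a log2 scale, so that a difference of 1 is a 2-fold difference. It covers male C57BL/6 mouse embryonic stem cells of 4 genotypes, grown in FCS with LIF, the cytokine that holds such cells undifferentiated, and enriched by MACS for SSEA-1, a surface sugar of stem cells. Genotype names give the Trim71 state first. WT-WT cells (Trimfl/fl, Lin28afl/fl; 4 libraries) carried both genes as loxP-flanked alleles and served as the controls, so "WT" here means conditional and not unmodified. KO-WT cells (Trim-/-, Lin28afl/fl; 4 libraries) had lost Trim71, WT-KO cells (Trimfl/fl, Lin28a-/-; 5 libraries) had lost Lin28a, and KO-KO cells (Trim-/-, Lin28a-/-; 5 libraries) had lost both. Trim71 was removed with 500 nM 4-hydroxytamoxifen for 2 days, followed by at least 7 further days of culture; the labels name no vehicle-treated control. How Lin28a was removed is not given in the sources used here.

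Naive pluripotency is the state of the early epiblast of the embryo, and LIF acting through STAT3 and relief of TCF7L1 repression hold it in culture. The 8 factors sit in the network that these signals feed, around the core factors OCT4, SOX2 and NANOG, and most of them are lost as cells move to the formative and primed states. TRIM71 and LIN28A are RNA-binding proteins of early cells. LIN28A blocks maturation of the let-7 microRNAs, TRIM71 is itself a let-7 target, and both proteins also bind mRNAs directly.

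Because the study's title concerns let-7, the sequence of that family and a matching site among the 8 genes are shown first. In RefSeq (GRCm38.p6), 9 mature family members share the seed at bases 2 to 8, in capitals in the first sequence below. The second sequence is part of the 3′ UTR of Esrrb (transcript Esrrb-204 of GENCODE M21, bases 617 to 623 of 2563), with the match to that seed in capitals.
mmu-let-7a-5p: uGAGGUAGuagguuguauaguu
Esrrb site: cctgcttcctgcccCTACCTCagccagcc
Esrrb was the single member of 8 with the match CTACCTC in its 3′ UTR, and 10.6% of 12504 tested genes with an annotated 3′ UTR held it. The Esrrb 3′ UTR is longer than the median of those genes, 1129 bases. The related form TACCTCA occurred 2 times in it, the printed site among them. The 3′ UTR of Tfcp2l1 held 2 matches to bases 2 to 7 only. The match is a description of letters, and let-7 binding was not measured.

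RefSeq promoters were found for 6 of the 8 genes, and 4 are printed as the 250 bases before the annotated start, read 5′ to 3′ on the gene's strand. Nr0b1 and Nr5a2 were both called higher in each comparison of Lin28a loss and in Trim71 loss with Lin28a intact. The printed promoter of each holds 1 nuclear receptor half-site AGGTCA, in capitals, and a second Nr5a2 promoter holds none. The printed Esrrb promoter holds the STAT palindrome TTCNNNGAA, in capitals, and a second Esrrb promoter does not. Which start these cells use was not examined. Zfp42, which was called in none of the comparisons, holds the octamer ATGCAAAT, which is read here on the other strand and in capitals.
Nr0b1, chrX:86191525-86191774, + strand: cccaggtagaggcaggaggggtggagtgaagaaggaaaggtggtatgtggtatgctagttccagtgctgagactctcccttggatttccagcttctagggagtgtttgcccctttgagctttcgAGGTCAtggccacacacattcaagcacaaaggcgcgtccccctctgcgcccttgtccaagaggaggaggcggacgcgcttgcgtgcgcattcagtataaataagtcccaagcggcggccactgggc
Nr5a2, chr1:136960449-136960698, - strand: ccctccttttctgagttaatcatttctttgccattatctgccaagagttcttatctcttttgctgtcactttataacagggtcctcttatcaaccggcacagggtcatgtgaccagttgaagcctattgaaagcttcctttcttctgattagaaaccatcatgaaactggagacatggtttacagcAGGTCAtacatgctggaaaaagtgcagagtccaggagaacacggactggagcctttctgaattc
Esrrb, chr12:86360867-86361116, + strand: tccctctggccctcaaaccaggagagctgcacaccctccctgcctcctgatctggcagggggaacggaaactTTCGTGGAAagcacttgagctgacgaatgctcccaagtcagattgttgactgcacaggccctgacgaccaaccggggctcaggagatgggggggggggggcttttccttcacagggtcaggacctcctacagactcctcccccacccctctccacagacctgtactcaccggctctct
Zfp42, chr8:43307010-43307259, - strand: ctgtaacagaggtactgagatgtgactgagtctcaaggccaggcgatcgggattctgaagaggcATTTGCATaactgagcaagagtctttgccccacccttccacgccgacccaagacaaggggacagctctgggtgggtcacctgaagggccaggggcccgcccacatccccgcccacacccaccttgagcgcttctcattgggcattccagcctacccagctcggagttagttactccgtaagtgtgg
Relative to the annotated start, the first base of each match is at -126, -64, -178 and -186, in that order. Windows of 300 bases (250 before to 50 after the start) were searched on both strands of 32851 RefSeq promoters. AGGTCA was in 16.3% of them, TTCNNNGAA in 8.3% and ATGCAAAT in 1.74%. Of the other motifs searched, the SOX site CTTTGTT (5.85% of promoters) was in a second Nr5a2 promoter, and the TCF and LEF site CTTTGAT (3.73%) and the extended half-site AAGGTCA (4.72%), which overlaps AGGTCA, were in none of the members' windows.

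Both targeted transcripts went with their labels. Trim71 lay between 10.04 and 11.00 in the libraries with the floxed alleles and between 8.77 and 9.55 in those without. Lin28a lay between 9.74 and 10.26 against 8.21 to 8.57. Each targeted transcript also differed with the state of the other gene. Trim71 was higher in WT-KO than in WT-WT (log2 difference 0.45 ± 0.111 SE, limma adjusted p 0.00431). Lin28a was lower in KO-WT than in WT-WT (-0.28 ± 0.0812, limma adjusted p 0.036). Below, "intact" refers to the alleles and not to an unchanged transcript level. Day effects had been removed from the table before deposit, which is why each fit carries a term for harvest day. Clones 1 and E3 carried Lin28a and clones 1-4 and C1 lacked it, so that Lin28a genotype and clone cannot be told apart. The mESC label was checked against 5 stem cell markers, of which 4 passed the filter on low values, with Pou5f1 at 12.65 ± 0.0743 (SD, n = 4) and Nanog at 12.26 ± 0.0768 in WT-WT cells. Sox2 and Sall4 had WT-WT means of 11.49 and 10.61. Fut4 was too low to be tested, with a mean of 3.27 in WT-WT and 2.88 in WT-KO.

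Loss of Lin28a was where most of the 8 genes differed. In WT-KO minus WT-WT, that is with Trim71 intact, 6 of the 8 were called higher and none lower: Nr5a2, Prdm14, Esrrb, Nr0b1, Tbx3 and Tfcp2l1. A call is a limma adjusted p under 0.05 over all tested genes, and 42.4% of tested genes were called in this comparison; 20.3% of tested genes were called higher. The median log2 difference of the members was 0.47, against -0.01 over all tested genes. In Trim71-null cells (KO-KO minus KO-WT) the same 6 were higher and Gbx2 was lower, where 42.8% of tested genes were called (20.8% of tested genes higher and 22.0% lower). The median was 0.53. These 2 comparisons share no library, but they are not independent. Both set clones 1-4 and C1 against clones 1 and E3, and both come from 1 fit with a shared spread and shared day terms. Genotypes did not overlap for 5 members in the first and 7 in the second, where 40.8% and 40.7% of tested genes did not overlap.

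**Figure D1:**
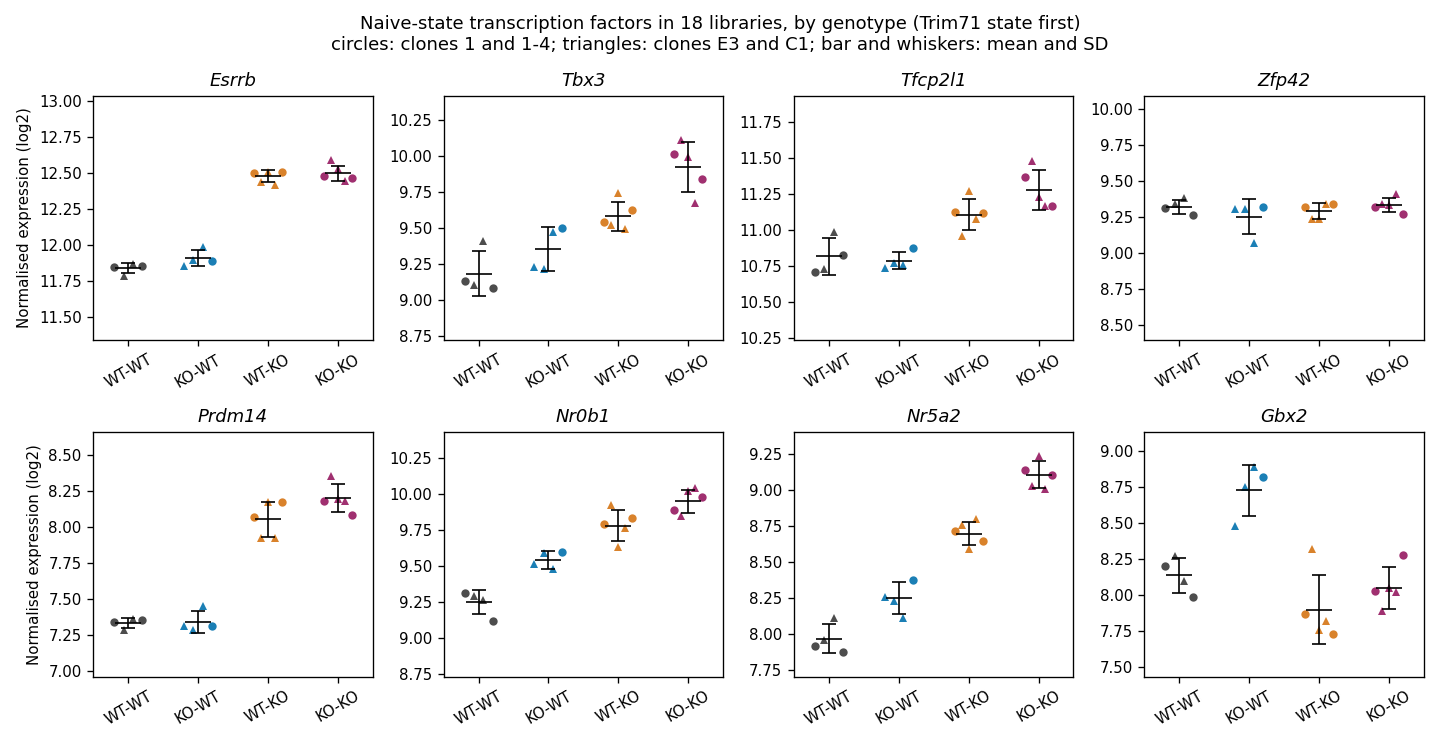
Normalised expression (log2) of the 8 genes in each of the 18 libraries, by genotype with the Trim71 state first; circles are clones 1 and 1-4, triangles clones E3 and C1, and the bar with whiskers is the mean and SD. Every panel spans the same range of log2 units. Esrrb and Prdm14 split into 2 levels by Lin28a state, Nr5a2 and Nr0b1 step upward from WT-WT to KO-KO, Gbx2 stands highest in KO-WT, and Zfp42 stays between 9.07 and 9.41.

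Esrrb, Nr5a2 and Nr0b1 are nuclear receptors. The first, an orphan receptor that binds oestrogen-related response elements and can stand in for NANOG in self-renewal, is on chr12:86361117-86521628 (GRCm38, GENCODE M21). Its log2 expression was 11.85, 11.79, 11.87 and 11.86 in the WT-WT libraries and 11.86, 11.90, 11.99 and 11.89 in KO-WT. In WT-KO it was 12.50, 12.44, 12.51, 12.42 and 12.51, and in KO-KO 12.48, 12.59, 12.53, 12.45 and 12.47. All 10 libraries without Lin28a lay above all 8 with it, while the 2 Trim71 states overlapped on each side. The difference WT-KO minus WT-WT was 0.63 ± 0.043 (SE; limma adjusted p 1.27e-08), or 1.55-fold, and higher in 4 of 4 same-day pairs. It was 0.60 ± 0.043 in Trim71-null cells (adjusted p 2.54e-08). Trim71 loss gave 0.07 ± 0.0465 with Lin28a (adjusted p 0.368) and 0.03 ± 0.0398 without it (adjusted p 0.728).

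Nr5a2, or LRH-1, a receptor that binds the Pou5f1 enhancer and promoter, is on chr1:136842571-136960448. It was lowest in WT-WT, at 7.92, 7.96, 8.11 and 7.88, and next in KO-WT, at 8.26, 8.23, 8.11 and 8.38. WT-KO libraries stood at 8.72, 8.76, 8.59, 8.80 and 8.65, and KO-KO libraries were highest at 9.14, 9.03, 9.24, 9.01 and 9.11. The 2 lower genotypes met at replicate 3, and all other steps were without overlap. It rose in every comparison of 2 genotypes: by 0.74 ± 0.0706 on Lin28a loss (limma adjusted p 7e-07), by 0.86 ± 0.0706 on Lin28a loss in Trim71-null cells (1.24e-07), and by 0.40 ± 0.0653 on Trim71 loss in Lin28a-null cells (0.00136). Loss of both gave 1.14 ± 0.0706, or 2.2-fold, which was the largest difference of any member in any comparison.

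Trim71 loss with Lin28a intact gave the smallest Nr5a2 difference, 0.28 ± 0.0762 (limma adjusted p 0.0302), higher in 2 of 3 pairs of libraries from 1 day. It was not called when any of 6 single libraries was left out, namely WT-WT replicates 1, 2 and 4 and KO-WT replicates 1, 2 and 4, with differences of 0.214 to 0.285. Nor was it called within clones E3 and C1 (0.16, adjusted p 0.452), and adjusted p ran from 0.000245 to 0.452 over the 29 alternatives. The Nr5a2 call on Trim71 loss in Lin28a-null cells was lost in 1 of 29, the E3 and C1 clones, at adjusted p 0.0834.

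Nr0b1, or DAX1, an atypical receptor without a DNA-binding domain of the usual kind that represses through partners such as OCT4 and NR5A2, is on chrX:86191764-86195947. Its WT-WT libraries lay at 9.31, 9.29, 9.26 and 9.12 and its KO-WT libraries at 9.51, 9.59, 9.48 and 9.60. WT-KO libraries lay at 9.79, 9.92, 9.63, 9.76 and 9.83 and KO-KO libraries at 9.89, 9.85, 10.02, 10.04 and 9.98. Its genotypes had the order of Nr5a2, with overlap between WT-KO and KO-KO only. Lin28a loss raised it by 0.54 ± 0.0632 with Trim71 (limma adjusted p 6.05e-06); without Trim71 the rise was 0.41 ± 0.0632 (8.41e-05). Trim71 loss raised it by 0.30 ± 0.0682 with Lin28a (0.0154) in 3 of 3 pairs, a call lost in 4 of 29 alternatives, among them without WT-WT replicate 4 (0.235, adjusted p 0.0706). In Lin28a-null cells the Trim71 difference of 0.17 ± 0.0584 was not called (adjusted p 0.0845); it was called without a day term (0.0245) and without WT-KO replicate 2 (0.0281).

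Prdm14, a PR-domain regulator that represses fibroblast growth factor receptors and de novo DNA methyltransferases, is on chr1:13113457-13127163. It was expressed at 7.34, 7.28, 7.36 and 7.35 in WT-WT and at 7.31, 7.28, 7.45 and 7.31 in KO-WT. Without Lin28a it was expressed at 8.07, 7.92, 8.17, 7.92 and 8.17 in WT-KO and at 8.18, 8.35, 8.19, 8.18 and 8.08 in KO-KO. As for Esrrb, the levels fell into 2 sets by Lin28a state with no overlap. Lin28a loss raised Prdm14 by 0.71 ± 0.072, or 1.64-fold (limma adjusted p 1.19e-06). In Trim71-null cells the rise was 0.86 ± 0.072 (1.54e-07). Trim71 loss gave 0.00 ± 0.0778 with Lin28a (adjusted p 0.989) and 0.15 ± 0.0667 without it (0.193).

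Genes that PRDM14 is known to repress were read beside it, namely Fgfr1, Fgfr2, Dnmt3a, Dnmt3b and Dnmt3l. All 5 were called lower on Lin28a loss in each Trim71 state, where 22.0% of tested genes were called lower in each comparison, with medians of -0.54 and -0.59. With Trim71 intact, Fgfr2 fell by 0.76 ± 0.0671 on the log2 scale (limma adjusted p 2.74e-07) and Dnmt3l, a cofactor of the DNA methyltransferases, fell by 0.71 ± 0.0925 (1.73e-05). Fgfr1 fell least, by 0.25 ± 0.0468 (0.000563). With Trim71 intact, Dnmt3a and Dnmt3b lost their calls in 1 of 29 alternatives, the E3 and C1 clones, which left 3 of 5; in Trim71-null cells all 5 kept theirs. Trim71 loss with Lin28a intact, where Prdm14 differed by 0.00, had 1 called higher (Fgfr1, 0.19 ± 0.0505) and 1 lower (Fgfr2, -0.40 ± 0.0725) at limma adjusted p 0.0263 and 0.0043. The Fgfr1 call there was lost in 8 of 29 alternatives, including each fit without WT-WT replicate 3 or 4 or KO-WT replicate 3 or 4, and the Fgfr2 call in 2. Whether PRDM14 acted on these genes was not tested.

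Tfcp2l1, a CP2-family factor and a target of LIF and STAT3, is on chr1:118627945-118685168. Its libraries were at 10.71, 10.73, 10.99 and 10.83 in WT-WT and at 10.74, 10.77, 10.76 and 10.88 in KO-WT. They were at 11.13, 10.96, 11.27, 11.08 and 11.12 in WT-KO and at 11.37, 11.48, 11.23, 11.17 and 11.17 in KO-KO. WT-WT replicate 3 reached into the WT-KO range, and KO-WT and KO-KO did not overlap. Lin28a loss raised Tfcp2l1 by 0.30 ± 0.0794 (limma adjusted p 0.00688) and, in Trim71-null cells, by 0.50 ± 0.0794 (0.000124). The first of these calls was lost in 1 of 29 alternatives, the E3 and C1 clones (0.235, adjusted p 0.205). Trim71 loss gave -0.03 ± 0.0858 with Lin28a (adjusted p 0.855) and 0.17 ± 0.0735 without it (0.173).

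Tbx3, a T-box factor tied to PI3K and LIF signalling in these cells, is on chr5:119670669-119684724. It was at 9.13, 9.10, 9.41 and 9.08 in WT-WT, at 9.23, 9.21, 9.47 and 9.50 in KO-WT, and at 9.54, 9.52, 9.74, 9.49 and 9.62 in WT-KO. KO-KO libraries were highest, at 10.01, 10.11, 9.99, 9.67 and 9.84, and overlapped WT-KO through replicate 4. Lin28a loss raised Tbx3 by 0.40 ± 0.0984 (limma adjusted p 0.0039), a call lost in 1 of 29 alternatives, the E3 and C1 clones (0.32, adjusted p 0.163). Trim71-null cells gave 0.57 ± 0.0984 (0.000232). Trim71 loss raised it in Lin28a-null cells by 0.34 ± 0.091 (0.0292), in 5 of 5 pairs. That call was lost in 9 of 29 alternatives, 7 of them leaving out 1 library (WT-KO replicate 1, 2, 4 or 5, or KO-KO replicate 1, 2 or 3), with a largest adjusted p of 0.419 over the days that hold all 4 genotypes. With Lin28a intact, Trim71 loss gave 0.17 ± 0.106 (adjusted p 0.306). The annotated span of the antisense gene Tbx3os1 shares 697 bases with that of Tbx3. The library kit, Illumina TruSeq RNA v2, does not mark strand, so any reads there cannot be told apart by strand. How they were counted is not known.

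Gbx2, a homeobox factor and STAT3 target, is on chr1:89927956-89931179 and had a pattern of its own. Its log2 values were 8.20, 8.27, 8.10 and 7.99 in WT-WT. KO-WT libraries were higher than all others, at 8.48, 8.75, 8.89 and 8.82. WT-KO libraries lay at 7.87, 8.32, 7.76, 7.82 and 7.73 and KO-KO libraries at 8.03, 7.89, 8.05, 8.02 and 8.28, which overlap each other and WT-WT. Trim71 loss with Lin28a intact raised Gbx2 by 0.59 ± 0.13, or 1.51-fold (limma adjusted p 0.012; 3 of 3 pairs). In Trim71-null cells Lin28a loss lowered it, with a log2 difference of -0.68 ± 0.12 (0.000292; lower in 4 of 4 pairs).

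The other Gbx2 differences missed the threshold. It differed by -0.24 ± 0.12 on Lin28a loss with Trim71 intact (limma adjusted p 0.123), by 0.15 ± 0.111 on Trim71 loss in Lin28a-null cells (0.463) and by -0.09 ± 0.12 on loss of both. The value of WT-KO replicate 2 weighed on this: without that library the first was -0.34 (adjusted p 0.0019) and the second 0.31 (adjusted p 0.0175). The Trim71 call with Lin28a intact was lost in 4 of 29 alternatives, among them without WT-WT replicate 4 (adjusted p 0.0562) and without KO-WT replicate 3 (0.0506), and adjusted p ran from 0.000246 to 0.166.

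The annotated span of Gbx2 shares 946 bases with that of D130058E05Rik, a processed transcript on the other strand. Its values followed those of Gbx2 over the 18 libraries with a Pearson correlation of 0.958, and 0.934 after genotype means were taken out. It was higher on Trim71 loss with Lin28a intact (0.58 ± 0.163; limma adjusted p 0.0333, lost in 9 of 29 alternatives, 6 of them leaving out WT-WT or KO-WT replicate 2, 3 or 4) and lower on Lin28a loss in Trim71-null cells (-0.84 ± 0.151; 0.000334). With a kit that does not mark strand, the part of shared reads in this likeness was not tested. The spans include introns, no reads were examined, and how reads in the overlap were counted is not known.

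**Figure D2:**
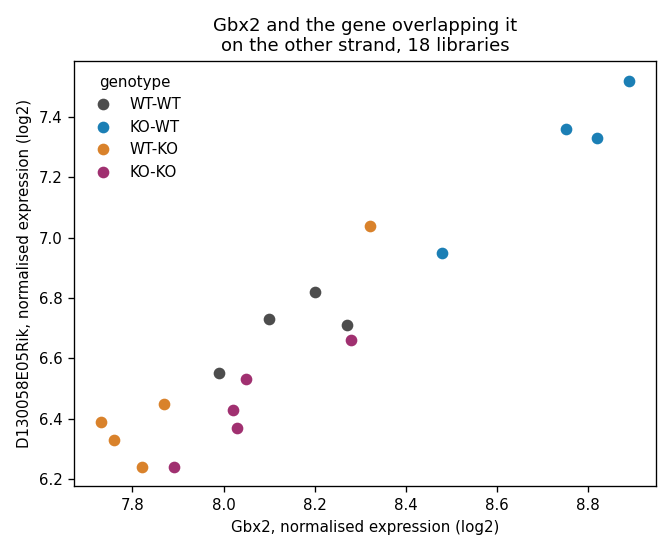
Normalised expression (log2) of Gbx2 on the x axis and of D130058E05Rik on the y axis, 1 point for each of 18 libraries, coloured by genotype. The 4 KO-WT libraries lie at the upper right, between 8.48 and 8.89 for Gbx2, and WT-KO replicate 2 is the library of that genotype at 8.32 and 7.04.

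Zfp42, or REX1, a zinc finger protein long used as a reporter of the naive state, is on chr8:43295063-43306980. Its libraries were at 9.31, 9.34, 9.38 and 9.26 in WT-WT and at 9.30, 9.30, 9.07 and 9.32 in KO-WT. They were at 9.32, 9.23, 9.23, 9.34 and 9.34 in WT-KO and at 9.32, 9.34, 9.33, 9.41 and 9.27 in KO-KO. All 4 genotypes overlapped, and no difference was called: the largest was 0.09 ± 0.0565, KO-KO minus KO-WT (limma adjusted p 0.223). That one was called after trends with transcript GC content and length were removed (0.17, adjusted p 0.00788), and so was loss of both (0.13, adjusted p 0.0387). Rlim, the ubiquitin ligase that targets REX1 protein, was lower by mRNA on Lin28a loss with Trim71 intact (-0.57 ± 0.123; limma adjusted p 0.00144); protein was not measured. Rlim mRNA was also called lower on Trim71 loss with Lin28a intact, with means of 10.94 in WT-WT and 10.45 in KO-WT. That call was not kept on every leave-out of 1 library.

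Fewer of the 8 were called on Trim71 loss than on Lin28a loss. With Lin28a intact (KO-WT minus WT-WT) 3 of 8 were called higher (Nr0b1, Nr5a2 and Gbx2) and none lower, where 11.2% of tested genes were called and 4.74% were higher; the median of the members was 0.12. In Lin28a-null cells (KO-KO minus WT-KO) 2 of 8 were called higher (Nr5a2 and Tbx3), where 8.38% of tested genes were called and 4.26% were higher. The median of the members was 0.16. Over all tested genes the medians were -0.00 in the first comparison and -0.01 in the second. Genotypes did not overlap for 2 and 1 of the members, where 28.2% and 12.6% of tested genes did not overlap, so the counts without overlap were near the background. Within clones E3 and C1, neither comparison called any member, and only 10 and 152 of all tested genes were called. The first comparison also called no member without WT-WT replicate 4 or when only its 2 genotypes were fitted.

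When both were lost (KO-KO minus WT-WT), 6 of 8 were higher, the same 6 as with Lin28a loss alone, where 45.6% of tested genes were called and 21.0% were higher. Genotypes did not overlap for these 6, as for 44.5% of tested genes. The members' median was 0.68. After Nr5a2 came Prdm14 at 0.86 ± 0.072, Tbx3 at 0.74 ± 0.0984, Nr0b1 at 0.71 ± 0.0632, Esrrb at 0.66 ± 0.043 and Tfcp2l1 at 0.47 ± 0.0794, with limma adjusted p between 7.9e-09 and 0.000203. Each kept its call in all 29 alternatives. Zfp42 and Gbx2 were not called, at 0.01 ± 0.0565 and -0.09 ± 0.12. The comparisons above share libraries with this one, so their values are set side by side and not correlated.

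**Figure D3:**
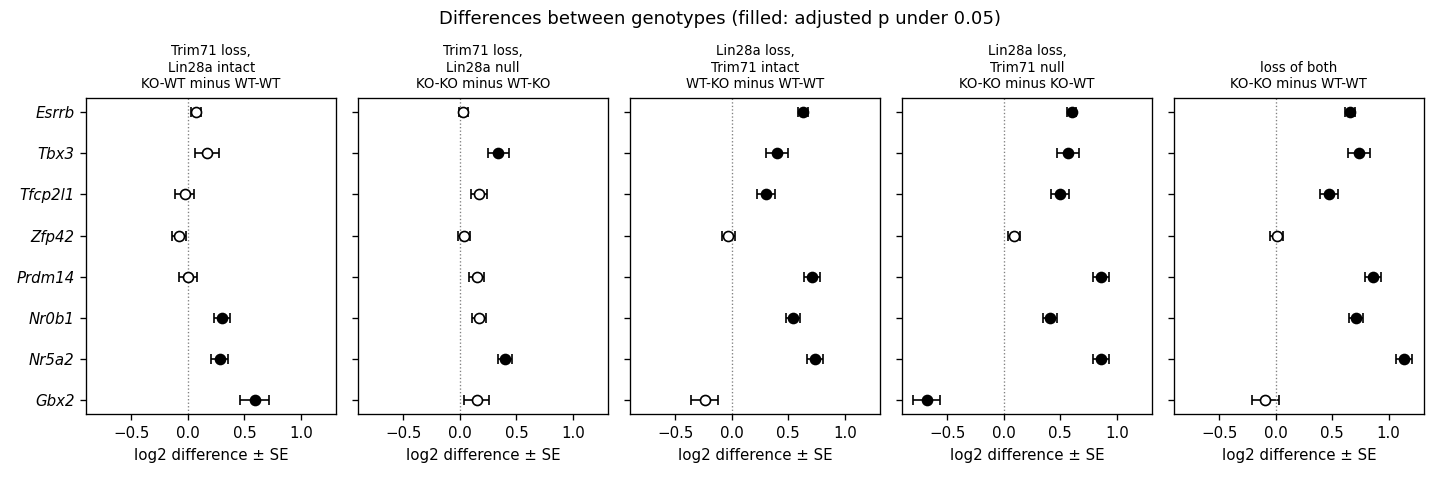
Log2 difference ± SE of each of the 8 genes (rows) in the 5 comparisons of 2 genotypes (panels); filled points have a limma adjusted p under 0.05. Filled points lie to the right of 0 except Gbx2 at -0.68 in the fourth panel, and the largest is Nr5a2 at 1.14 on loss of both.

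Whether the Trim71 effect differed between the Lin28a states was tested as an interaction. None of the 8 was called, and 3 of 14988 tested genes were (0.0200%). At an unadjusted p under 0.05 there was 1 member, Gbx2, with -0.44 ± 0.171 (p 0.0193; limma adjusted p 0.27). Adjusted p for Gbx2 ran from 0.0849 to 0.756 over 28 alternatives, and none of these called a member. The Gbx2 calls in single comparisons are therefore not shown to differ between Lin28a states.

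Other genes of the naive network gave a frame for the 8. Of 15 further naive and general pluripotency genes, 12 were called higher and none lower on Lin28a loss with Trim71 intact, where 20.3% of tested genes were higher. The median was 0.28. The count ran from 7 to 14 over 11 other settings and from 11 to 12 when 1 library was left out. Nanog rose by 0.86, and Dppa3, which protects maternal and imprinted methylation, by 0.86. In Trim71-null cells 9 were higher and 1, Utf1, was lower, where 20.8% of tested genes were higher and 22.0% lower. Klf4 and Klf5, Krüppel-like factors of the same network, were called higher in each of the 5 comparisons. Klf4 rose by 0.46 ± 0.0687 on Trim71 loss with Lin28a intact (limma adjusted p 0.00102) and by 0.61 ± 0.0636 on Lin28a loss (1.79e-06). Their Trim71 calls with Lin28a intact were each lost in 2 alternatives, the E3 and C1 clones and the fit of 2 genotypes. Klf2, of the same gene family, fell on Trim71 loss in Lin28a-null cells (-0.60 ± 0.0727; 0.000135).

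Signalling genes upstream of the 8 were read next. Of 9 genes of the LIF receptor and STAT3 pathway, 1 was higher and 4 lower on Lin28a loss with Trim71 intact, with a median of -0.14, where 20.3% of tested genes were higher and 22.0% lower. Stat3 itself was higher by 0.20 ± 0.049 (limma adjusted p 0.00449), and Jak2, a kinase of cytokine receptors, was lower (-0.89 ± 0.165; 0.000463). Socs3, a feedback inhibitor and STAT3 target, was lower in that comparison (-0.27 ± 0.0852) and higher on Trim71 loss with Lin28a intact (0.38 ± 0.0921; 0.0189), where Gbx2 was also higher. The first Socs3 call was lost in 5 of 29 alternatives (3 of them without WT-WT replicate 1 or 4 or WT-KO replicate 1) and the second in 8 (3 of them without WT-WT replicate 3 or 4 or KO-WT replicate 2). Of 10 genes of the Wnt and TCF7L1 pathway, 3 were higher and 1 lower in that comparison, a share called that is near the 42.4% of tested genes. Tcf7l1, the repressor of Esrrb and other naive genes, rose by 0.38 ± 0.0509 (2.03e-05) in the same comparison in which Esrrb rose. Of 3 cofactors and regulators of the members, all 3 were lower on Lin28a loss with Trim71 intact (1 to 3 over 11 other settings): Rlim, the ESRRB coactivator Ncoa3 (-0.27 ± 0.067) and the PRDM14 partner Cbfa2t2 (-0.18 ± 0.0467). In Trim71-null cells 1 of the 3, Rlim, was lower, a call lost in 7 of 29 alternatives (5 of them without KO-KO replicate 2 or 4 or KO-WT replicate 1, 2 or 4), and the median was -0.09.

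Genes of the formative and primed states, which follow the naive one, were read on the other side. Of 11, 10 were tested. On Trim71 loss with Lin28a intact none was called, where 11.2% of tested genes were. On Lin28a loss with Trim71 intact 5 were lower and 2 higher, where 22.0% of tested genes were lower and 20.3% higher. The lower count ran from 2 to 5 over 11 other settings. It includes Dnmt3a and Dnmt3b, which were also read above among the genes that PRDM14 represses. Otx2, a driver of the formative state, fell by 0.90 ± 0.136 (limma adjusted p 7.27e-05) and Pou3f1 fell by 0.81 ± 0.15 (0.000445). Zic2 and Foxd3 were the 2 that rose, by 0.64 ± 0.128 and 0.46 ± 0.106. Of 5 tested close relatives of the members, 2 were higher and 2 lower in the same Lin28a comparison, with the same shares over all tested genes. Each of these 2 counts ran from 0 to 2 over 11 other settings. Gbx1 was higher by 0.32 ± 0.0872 and Yy1, a relative of Zfp42, was lower (-0.18 ± 0.0483). Gbx1 was near the filter on low values and passed it only through libraries without Lin28a. Its highest value was 3.17 in WT-WT, 2.97 in KO-WT and 3.59 in WT-KO, so its difference is a description only.

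**Figure D4:**
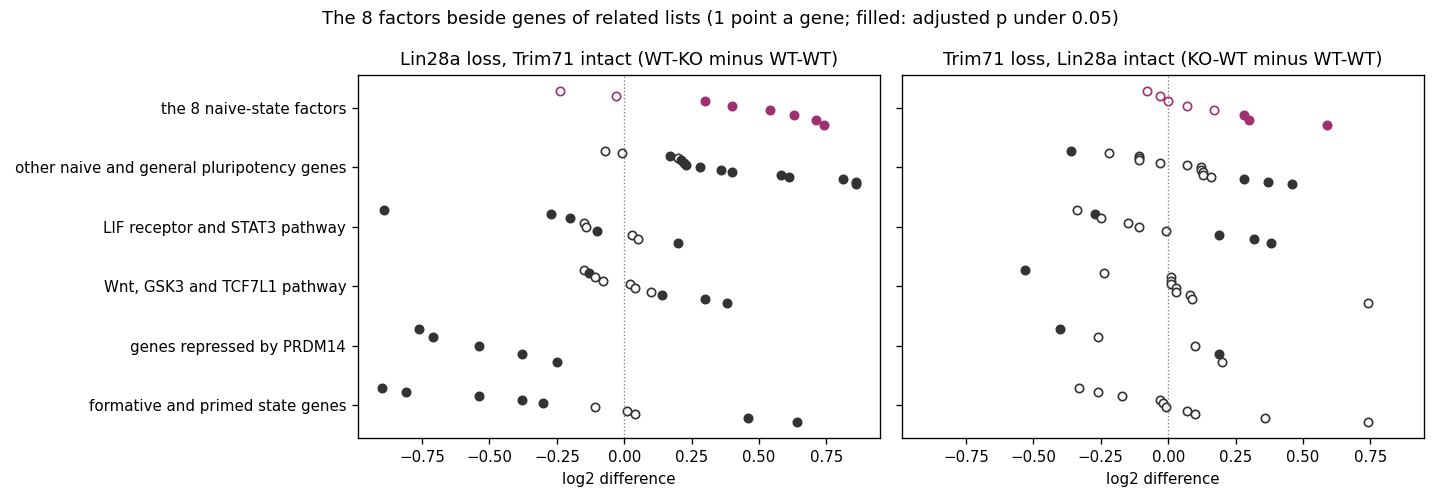
Log2 difference of the 8 factors (purple) and of genes in 5 related lists (dark), 1 point a gene, on Lin28a loss with Trim71 intact at left and Trim71 loss with Lin28a intact at right; filled points have a limma adjusted p under 0.05. At left the 6 filled factors lie between 0.30 and 0.74 and the 5 genes repressed by PRDM14 between -0.76 and -0.25, while at right most points are open.

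Markers of other cell types moved with Lin28a loss as well. Of 8 trophectoderm markers 6 were tested, and 5 were lower on Lin28a loss in each Trim71 state, where 22.0% of tested genes were lower. Eomes was not lower (mean 5.30 in WT-WT and 5.43 in WT-KO), and Cdx2 and Elf5 were too low to be tested. Summed on the linear scale, the 8 lay between 3649 and 5189 normalised units in WT-WT and between 279.3 and 353.5 in WT-KO. The keratins Krt8 and Krt18 weighed most in the WT-WT sum, with log2 means of 10.96 and 10.80 against 6.74 and 6.60 in WT-KO. All 5 tested primitive endoderm markers of 7 were lower with Trim71 intact, with sums of 262 to 361.2 in WT-WT and 80.64 to 103.8 in WT-KO. Of 6 fibroblast markers only 3 were in the table, and 2 of these, Col1a1 and Col1a2, were lower. Thy1 was not lower (mean 5.18 in WT-WT and 5.32 in WT-KO). Col1a2 reached at most 3.04 in WT-KO, below the filter on low values, and was tested through other genotypes. Both tested mesoderm markers were lower, and 3 of 5 neural markers were higher and 1 lower. The tested mesoderm markers were Hand1, which is also in the trophectoderm list, and Kdr (mean 4.66 in WT-WT and 4.39 in WT-KO). T and Mixl1 were too low to be tested. In KO-WT cells the trophectoderm sum was 3710 to 4787 and the primitive endoderm sum 316.7 to 475.3, and on Trim71 loss with Lin28a intact no marker of these lists was called. The part of these cells in the members' differences was not tested; in bulk RNA, fewer cells of a type and less RNA per cell cannot be told apart.

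Among themselves, the members fell into a few like patterns over the 18 libraries, which share genotypes and the removal of day effects. Esrrb and Prdm14 had a Pearson correlation of 0.99, and 0.84 once genotype means were taken out. Tbx3 and Tfcp2l1 had 0.92 and 0.78, and Nr0b1 and Nr5a2 had 0.95 and 0.44. Of 28 pairs, 7 had a correlation above 0.5 once genotype means were taken out, but 1 of these, Nr0b1 and Gbx2 at 0.59, had -0.25 over the libraries as they stand. Other pairs turned from positive to negative when genotype means were taken out. Prdm14 went from 0.90 to -0.53 with Nr5a2 and from 0.84 to -0.53 with Nr0b1. Tfcp2l1 and Nr0b1 went from 0.71 to -0.62, Esrrb and Nr0b1 from 0.87 to -0.42, and Esrrb and Nr5a2 from 0.90 to -0.35. Over the libraries as they stand, Zfp42 reached at most 0.29 with another member and Gbx2 was negative with all 7 others. With genotype means taken out, Zfp42 had 0.46 with Nr5a2 and 0.37 with Nr0b1, and Gbx2 had 0.18 with Nr5a2.

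The tested genes with the pattern most like each member were named by the same measure. For Esrrb they were Slc9a8 (0.995), R3hdm2 (0.988) and Ints7 (0.987), and for Prdm14 Acacb (0.994), Akap1 (0.992) and Ephb2 (0.992). Fzd5, a Wnt receptor, Cntrob (0.985 each) and Cipc (0.973) led for Nr5a2, and Rgl2 (0.970), Fzd5 (0.965) and Cenpb (0.961) for Nr0b1. For Tfcp2l1 they were the basement membrane gene Nid1 (0.977), Synrg (0.960) and Dnah2 (0.959), and for Tbx3 Cobl (0.968), Iqgap3 (0.967) and Epb41l1 (0.959). Gbx2 was followed by its overlapping neighbour and by F2rl1 (0.938). Zfp42 had no match as close, with Golga1 at 0.854, Gm37494 at 0.848 and Rmi1 at 0.845. The names depended on the measure. By Spearman correlation, none of the genes just named for Esrrb, Prdm14, Nr5a2 or Tbx3 was among the 3 highest. Nid1 again led for Tfcp2l1, and Klf4 led for Tbx3 (0.981).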

How the data were processed

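mRNA libraries (Illumina TruSeq RNA v2, paired-end on a HiSeq1500, per the labels' protocols) were analysed from 1 deposited table of 21685 genes and 19 libraries. The submitters' processing notes name CASAVA 1.8, STAR and DESeq2 without role or order; the counting tool, annotation and genome build are not given in the sources used here. The deposited values are log2 normalised expression, as read from the values, which run from -0.71 to 16.3; read depth is unknown, so precision rests on the spread between libraries. Day effects had been removed before deposit: no gene had a day term above 1.7e-08. KO-WT replicate 5 differed from the average of its genotype by at most 1.5e-08 and was left out, leaving 18 libraries. Same-day libraries are paired by the labels; a check by their correlation is void, since the day effect is gone.

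The tests took genes that reached 10 normalised units on the linear scale, after 2 was raised to the deposited value, in 4 or more libraries (14988, 69.1%). limma 3.58.1 (R 4.3.3; eBayes with a variance trend) fitted genotype means and a day term over all 4 genotypes, with 10 residual degrees of freedom and Benjamini-Hochberg adjustment over all tested genes. This script was tested on simulated data. The labels give days and clones but do not say which libraries were separate cultures, so p-values measure the spread between these libraries. Alternatives were no day term, 2 other scalings, 2 other filters, no variance trend, GC and length correction, subsets of clones, days and genotypes, and leaving out each library.

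All 8 members are named, with the 3 genes most correlated with each over 18 libraries, except 1 gene that is not reported here. From 7 fixed gene lists, up to 3 called genes with the largest differences per comparison could be named, and others where a member's known role concerns them. D130058E05Rik and Tbx3os1 were added after their values were seen, because they overlap members. The 4 printed promoters and the motifs in capitals were chosen in the same way. Members, lists and tests were chosen with earlier results of these data known. Markers of 7 cell types were read: stem cell, trophectoderm, primitive endoderm, fibroblast, neural, mesoderm and 2-cell-like (of the last, 3 of 5 were in the table and none was tested). Gene positions and 3′ UTRs are from GENCODE M21 (GRCm38) and promoters and microRNAs from RefSeq (GRCm38.p6), matched by name; the authors' build may differ.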

Additional observations from a re-analysis of the deposited data

Results flagged for a closer look

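Single libraries stood apart from the rest of their genotype in 3 of 32 sets of member and genotype; chance flags about 1 in 20. Tbx3 was 9.41 in WT-WT replicate 3, the highest of 4, with 0.852 of the genotype's range between it and the next library. Zfp42 was 9.07 in KO-WT replicate 3, the lowest of 4, with 0.918 of the range below the next. Gbx2 was 8.32 in WT-KO replicate 2, the highest of 5, with 0.768 of the range above the next.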

How the results depend on the processing

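The 8 genes were recomputed under 29 alternatives for each comparison of 2 genotypes and 28 for the interaction, all chosen with earlier results known. Of 1384 recomputed differences, 1319 kept direction and side of the threshold, 29 lost a call, 9 gained one and 27 changed sign, none of the latter called either way. The pairing by day entered as the main model's block; with no replicate block, 3, 3, 6, 7, 6 and 0 members were called in place of 3, 2, 6, 7, 6 and 0, Nr0b1 being the addition in KO-KO minus WT-KO (0.17), and no other call changed. Over all tested genes, calls without the block were 4219 in place of 1674 for KO-WT minus WT-WT, 2618 in place of 1256 for KO-KO minus WT-KO and 673 in place of 3 for the interaction. The scalings moved the median gene by at most 0.02.

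Members called in KO-WT minus WT-WT numbered 3, but 0 in clones E3 and C1 alone, 0 with only the 2 genotypes fitted and 0 to 3 on leaving out 1 library. In KO-KO minus WT-KO the 2 became 0 in clones E3 and C1 alone, 1 on days with all 4 genotypes and 1 to 3 on leave-outs. The other counts on leave-outs were 6 to 7 for WT-KO minus WT-WT, 7 to 7 for KO-KO minus KO-WT and 6 to 6 for loss of both. The cause was not tested, though the subsets hold fewer libraries; in clones 1 and 1-4 alone KO-WT has 1 library, assumed to vary like the others. Sign changes were all of small differences. In KO-WT minus WT-WT these were Tfcp2l1 0.0974 and Prdm14 -0.0113 after GC and length correction, and Tfcp2l1 0.123, Zfp42 0.0421 and Prdm14 -0.0377 in clones 1 and 1-4. Leave-outs there ran from -0.0522 to 0.0313 for Prdm14, -0.0735 to 0.0577 for Tfcp2l1 and -0.115 to 0.00872 for Zfp42. In clones 1 and 1-4, KO-KO minus WT-KO gave Esrrb -0.0285 and Zfp42 -0.0329, WT-KO minus WT-WT gave Zfp42 0.0423, KO-KO minus KO-WT gave Zfp42 -0.0328, and loss of both gave Gbx2 0.0564. In the same clones the interaction gave Tbx3 -0.0678, Zfp42 -0.075 and Nr5a2 -0.0575. The GC correction gave Zfp42 0.0633 in WT-KO minus WT-WT and Nr5a2 -0.00244 in the interaction; clones E3 and C1 gave Zfp42 -0.00709 on loss of both. Leave-outs ran from -0.00237 to 0.0463 for Esrrb in KO-KO minus WT-KO, from -0.0821 to 0.00225 in the interaction, and from -0.0184 to 0.0333 for Zfp42 on loss of both. Depth is unknown and sets no limit here.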
